A study of Mus musculus with 6 samples.

Results

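The genes described here are 10 that encode the main proteins of mouse milk and of its secretion: the caseins Csn1s1, Csn1s2a, Csn1s2b, Csn2 and Csn3, the whey protein genes Wap, Lalba and Glycam1, and Btn1a1 and Xdh, whose products coat the milk fat globule. They were taken by name from 23337 genes in the count tables, and all 10 were found. The libraries are messenger RNA of sorted basal cells of the mammary gland, the contractile outer layer of its ducts and alveoli. The groups were wild type (Vimwt/wt, 2 libraries) and knockout of Vim, the vimentin gene (Vimtm1Cba/tm1Cba, 4 libraries). All mice were 15 weeks old and of the strain background 129/Sv X C57BL/6. Each library came from 2 to 3 pooled mice, untreated as far as the labels say. Basal cells were gated as living cells without CD45 or CD31, with low CD24 and high CD49f. The parity of the mice and their stage of the oestrous cycle are not given in the sources used here. The knockout allele is a germline one, so the other cells of the gland carry it as well.

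Milk proteins are made by the luminal secretory cells of the alveoli in late pregnancy and lactation, while basal cells squeeze the alveoli in response to oxytocin. Prolactin acts through its receptor and the kinase JAK2 on the transcription factor STAT5, which binds casein promoters together with other factors such as the glucocorticoid receptor and C/EBP-beta. The calcium-binding caseins form micelles, and kappa-casein, the product of Csn3, coats them and keeps them in suspension. Alpha-lactalbumin, the product of Lalba, turns a Golgi galactosyltransferase into lactose synthase.

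The sequences upstream of the genes show which of them carry the letters of a STAT site close to their start. RefSeq windows (GRCm38.p6, the assembly also called mm10) were found for 6 of the 10 genes: Csn1s1, Csn2, Csn1s2a, Wap, Lalba and Glycam1. They are the 250 bases before the start of transcription, 5′ to 3′ on the strand of the gene. The motif TTCNNNGAA, the letters of a STAT site and the same on both strands, was found once in each of 3 of these 6 windows, those of Csn1s1, Csn2 and Glycam1. It was found in 7.02% of 32851 such windows of all genes. The motif TTGCNNAA, a form of the C/EBP site searched on both strands, was in 0 of the 6 and in 9.56% of all windows. The 4 windows below are those of the genes with the STAT letters, in capitals, and of Csn1s2a, the gene that passed the test of genotype. The STAT letters begin 100 bases before the start in Csn1s1, 93 in Csn2 and 145 in Glycam1. The RefSeq start of Csn1s2a lies 117 bases from the start of the gene in the count tables, so its window may not be the promoter used there.
Csn1s1 (chr5:87665958-87666207, + strand): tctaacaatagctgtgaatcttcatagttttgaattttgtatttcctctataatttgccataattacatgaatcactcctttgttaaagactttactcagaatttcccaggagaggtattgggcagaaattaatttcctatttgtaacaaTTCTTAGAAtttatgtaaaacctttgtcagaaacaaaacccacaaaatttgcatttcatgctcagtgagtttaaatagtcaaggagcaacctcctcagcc
Csn2 (chr5:87699426-87699675, - strand): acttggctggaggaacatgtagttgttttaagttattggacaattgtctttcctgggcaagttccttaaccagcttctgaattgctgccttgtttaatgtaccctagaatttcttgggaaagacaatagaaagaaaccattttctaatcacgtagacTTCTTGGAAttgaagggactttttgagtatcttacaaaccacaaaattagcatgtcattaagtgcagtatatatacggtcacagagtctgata
Glycam1 (chr15:103565082-103565331, - strand): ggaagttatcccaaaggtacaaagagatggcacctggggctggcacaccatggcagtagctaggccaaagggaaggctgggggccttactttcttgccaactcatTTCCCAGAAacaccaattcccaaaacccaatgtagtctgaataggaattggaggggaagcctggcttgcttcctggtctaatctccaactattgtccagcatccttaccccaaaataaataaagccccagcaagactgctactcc
Csn1s2a (chr5:87774200-87774449, + strand): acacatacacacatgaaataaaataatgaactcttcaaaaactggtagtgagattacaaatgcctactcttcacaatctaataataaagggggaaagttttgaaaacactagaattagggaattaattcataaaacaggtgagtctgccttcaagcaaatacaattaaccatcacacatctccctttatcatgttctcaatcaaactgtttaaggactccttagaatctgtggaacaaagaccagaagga

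The 5 casein genes lie in 1 cluster on chromosome 5, positions 87666224 to 87932264 (mm10), a span of 266041 bases. Their order is Csn1s1, Csn2, Csn1s2a, Csn1s2b and Csn3, and the gaps between them are 10049, 75145, 19324 and 101211 bases. Between Csn1s2b and Csn3 the tables list 4930432K09Rik and Gm7337, each with 0 counts in every library, 1700066N21Rik, which runs across Csn3 on the other strand and also has 0 counts, and Odam, with 1 count in each wild-type library and 0 in the knockout libraries. The other genes are on chromosome 11 (Wap, 6635483 to 6638649), chromosome 15 (Lalba, 98480400 to 98482683, and Glycam1, 103562762 to 103565078), chromosome 13 (Btn1a1, 23456993 to 23465901) and chromosome 17 (Xdh, 73883908 to 73950182). Counts cover the annotated exons of each gene. No exon of the 10 genes overlapped an exon of another gene in the tables. Csn1s1, Csn1s2a and Csn1s2b shared 0 stretches of 50 bases with transcripts of any other gene, so reads of that length from these caseins would not be confused with each other. For Csn2 and Csn3 the shared part was 0.0676% and 0.984%, and for Xdh it was 7.14%.

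Facts of the whole series bear on these genes as follows. Total counts ran from 25347967 to 31200622 per library, and a count of 0 allows a level of up to 0.0912 to 0.119 CPM (counts scaled to a common library size; 3 counts per library, counting error only). The level of Vim was 105 ± 8.96 CPM in the knockout libraries (SD, n = 4), against 228 ± 18.5 CPM in the wild-type ones (SD, n = 2) (log2 fold change -1.12, edgeR adjusted p = 0.019), in the direction of its label in 4 of 4 knockout libraries. By a day code, wild type 1 was processed with knockout 1 and 2 (called experiment 1 here) and wild type 2 with knockout 3 and 4 (experiment 2). Wild type 1 stood apart in markers of endothelium, which the CD31 gate was to remove: the 15 markers summed to 299.9 CPM in wild type 1, 137 in wild type 2 and 67.8 to 97.1 in the knockout libraries, and 0 of them were at 0 in any library. The 19 luminal progenitor and alveolar markers found summed to 4030 and 3671 CPM in wild type 1 and 2 and to 3462 to 3778 in the knockout libraries. Abundant genes such as Epcam, Krt8 and Krt18 make up much of this sum, so it says little of scarcer ones such as Elf5 and Rspo1, given below. The part of these other cells in the results below was not tested. In sorted cells measured in bulk, fewer cells of a type and less RNA per cell cannot be told apart.

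Corrected for gene length, the 10 genes spanned a wide range of levels, given as FPKM (CPM divided by exon length in kilobases, computed here). Averaged over the 6 libraries, Xdh (37.6 FPKM) and Csn3 (24.0) were highest, followed by Csn1s1 (6.06), Csn2 (4.89), Csn1s2a (2.04), Lalba (1.38), Glycam1 (0.520), Btn1a1 (0.360), Csn1s2b (0.0632) and Wap (0.0180). In wild type the ranges of Xdh (35.9 and 44.2) and Csn3 (40.4 and 16.6) overlapped, as did those of Csn1s1 (18.1 and 11.99) and Csn2 (24.1 and 4.54), so these neighbours in the order do not differ beyond their spread. The order of the knockout means was different, as Lalba (0.843 FPKM), Glycam1 (0.554) and Btn1a1 (0.329) stood above Csn2 (0.171) and Csn1s2a (0.128). It did not hold in every knockout library, except that Lalba and Btn1a1 were above Csn1s2a in each. In knockout 1, Csn2 (0.533 FPKM) was above Lalba (0.472) and Btn1a1 (0.447), and Glycam1 was at 0 in knockout 1 and 4. In knockout, Csn3 (11.2 to 34.8 FPKM) stood above Csn1s1 (0.223 to 3.51) in every library.

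**Figure D1:**
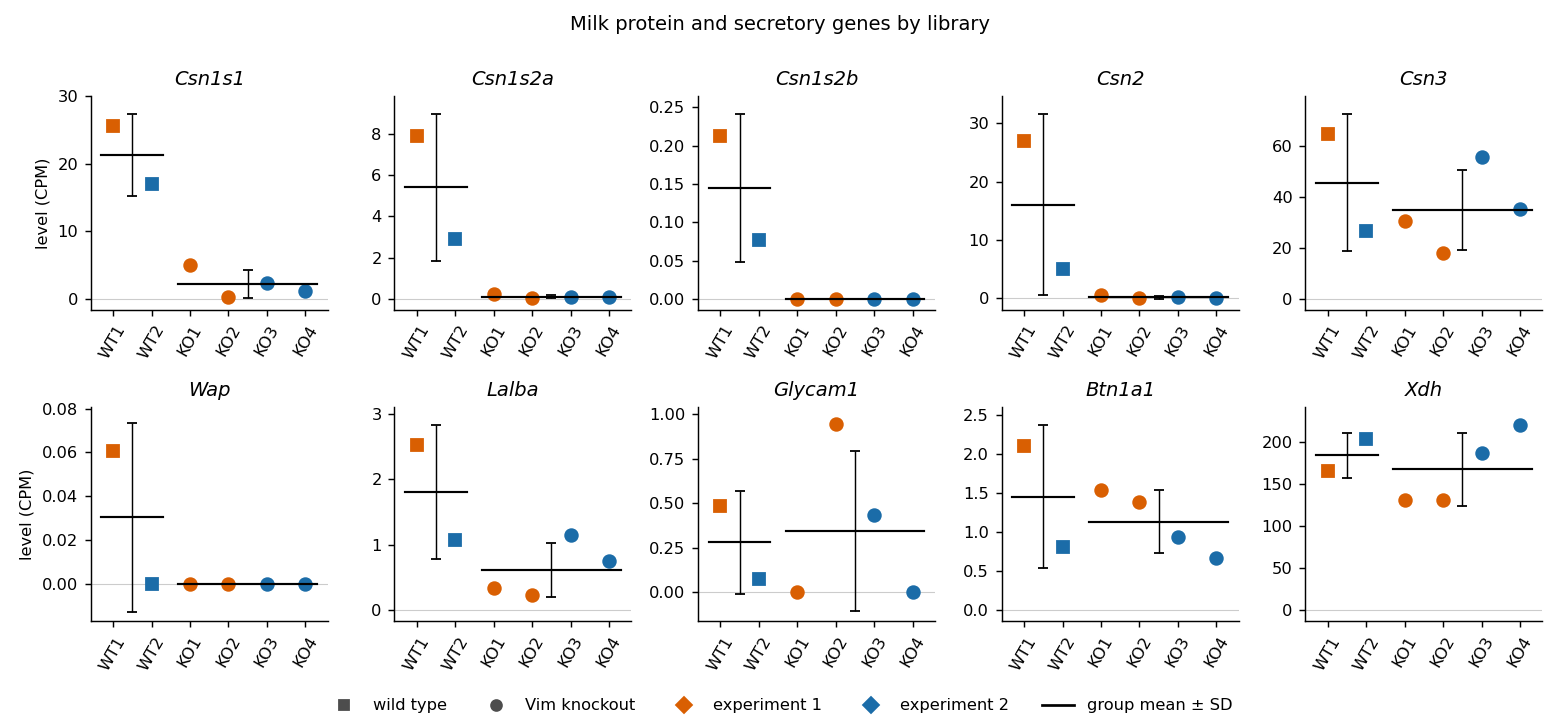
Level of each of the 10 genes in CPM (vertical axis, linear, with its own scale in each panel) in the 6 libraries (horizontal axis). Squares are wild type and circles knockout, orange is experiment 1 and blue experiment 2, and black lines give the group mean with its SD (n = 2 and 4); Csn1s1, Csn1s2a and Csn2 have all knockout libraries below both wild-type libraries, Csn1s2b has 0 counts in each knockout library and 2 in wild type 2, which that depth does not separate, and the other 6 panels overlap.

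The main comparison asked which of these genes differ in basal cells without vimentin. The casein genes Csn1s1, Csn2 and Csn1s2a, were lower in every knockout library than in either wild-type library, by 9.54, 83.9 and 45.9 times in the means. Mean levels (± SD, n = 2 and 4) were 21.3 ± 6.08 against 2.23 ± 2.02 CPM for Csn1s1, 16.0 ± 15.5 against 0.191 ± 0.282 CPM for Csn2 and 5.40 ± 3.55 against 0.118 ± 0.0928 CPM for Csn1s2a. Csn3, the casein gene at the far end of the cluster, overlapped between the genotypes. Of the 10 genes, 8 passed the filter on low counts and were tested with edgeR's quasi-likelihood test, with genotype alone in the model. Csn1s2a was the 1 gene that fell with an adjusted p under 0.05 and 0 rose, against 0.0215% of 13925 tested genes called lower and 0.0575% called higher. With the experiment as a replicate block, Csn1s2a and Csn2 fell, against 0.438% of all tested genes called lower and 1.12% called higher. All 4 knockout libraries lay below both wild-type libraries for 3 of the 8 tested genes, and for 8.57% of all tested genes. These 3 include Csn1s2a and Csn2, which passed the filter on low counts through their wild-type libraries. The 10 genes were chosen with earlier results of these data known, so these shares are a description and no test.

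Csn1s2a, which encodes one of the alpha-S2-like caseins, was counted 260 times in wild type 1, 75 in wild type 2, and 8, 1, 3 and 2 times in knockout 1 to 4. The corresponding levels were 7.91 and 2.89 CPM in wild type and 0.252, 0.0395, 0.101 and 0.0787 CPM in knockout. Every knockout library was below both wild-type libraries, and knockout 1 was the highest of the 4. The gene passed the filter through its wild-type libraries alone (2 of 2 wild-type and 0 of 4 knockout libraries above 0.348 CPM). Its log2 fold change was -5.41 (SE 0.59, edgeR adjusted p = 0.0218), or -5.36 with the replicate block (SE 0.44, adjusted p = 7.14e-04). The call was lost without wild type 1 (log2 fold change -4.49, adjusted p = 0.208), knockout 2 (adjusted p = 0.110), knockout 3 (0.111) or knockout 4 (0.0907), and by limma-voom (0.147), while the direction held in each of these fits.

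Csn2 encodes beta-casein, a main protein of the micelle. Its counts were 888 in wild type 1, 132 in wild type 2, 19 in knockout 1, 5 in knockout 3 and 0 in knockout 2 and knockout 4. In levels this was 27.0 and 5.08 CPM in wild type and at most 0.597 CPM in knockout, where a count of 0 allows up to 0.119 CPM in knockout 2 and 0.118 CPM in knockout 4. Wild type 1 exceeded wild type 2 by 5.32 times, and the groups did not overlap. The log2 fold change was -6.25 (SE 0.96, edgeR adjusted p = 0.128), and Csn2 fell in the fit with the replicate block (-6.19, SE 0.72, adjusted p = 0.0212). Like Csn1s2a, it passed the filter through its wild-type libraries (2 of 2 wild-type and 1 of 4 knockout libraries above 0.348 CPM). Summed over libraries, the wild-type level was 81.1 times the knockout level (95% counting interval 54.2 to 127). This interval leaves out the spread between libraries. Without wild type 2 the adjusted p was 0.0499 and without wild type 1 it was 0.450.

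Csn1s1, the alpha-S1-casein gene, was the most abundant of the 3 in the knockout libraries. Wild type 1 held 841 of its reads, wild type 2 held 441, and knockout 1 to 4 held 158, 8, 72 and 31, or 25.6 and 17.0 CPM against 4.97, 0.316, 2.42 and 1.22 CPM. The 2 wild-type libraries differed by 1.51 times, less than for the other caseins, while the knockout libraries spread over 15.7 times, with knockout 1 high and knockout 2 low. The groups did not overlap, but the log2 fold change of -3.23 (SE 0.69) did not pass (edgeR adjusted p = 0.214, and 0.160 with the replicate block). Leaving out knockout 1 gave -3.97 with an adjusted p of 0.0824.

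Csn1s2b, the paralog next to Csn1s2a, was near the limit of detection. Wild type 1 held 7 reads of it, wild type 2 held 2 and each knockout library 0, so it was not tested. Its wild-type level was 5.72 times a floor of 3 counts over the knockout group, with the 9 wild-type reads taken as exact. With the counting error of the 9 wild-type reads included, the exact 95% interval of the ratio begins at 3.77.

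Csn3, the kappa-casein gene, did not follow the other caseins. Wild type 1 held 2122 reads, wild type 2 held 690, and knockout 1 to 4 held 968, 454, 1655 and 894. As levels these are 64.5 and 26.6 CPM for wild type against 30.4, 17.9, 55.6 and 35.2 CPM in knockout. Only knockout 2 was below both wild-type libraries. In experiment 1 both knockout libraries were below their wild type (mean log2 difference -1.46), and in experiment 2 both were above it (0.73). Over all libraries the log2 fold change was -0.39 (SE 0.45, edgeR adjusted p = 0.932), and without wild type 1 it was 0.41 (adjusted p = 0.846).

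**Figure D2:**
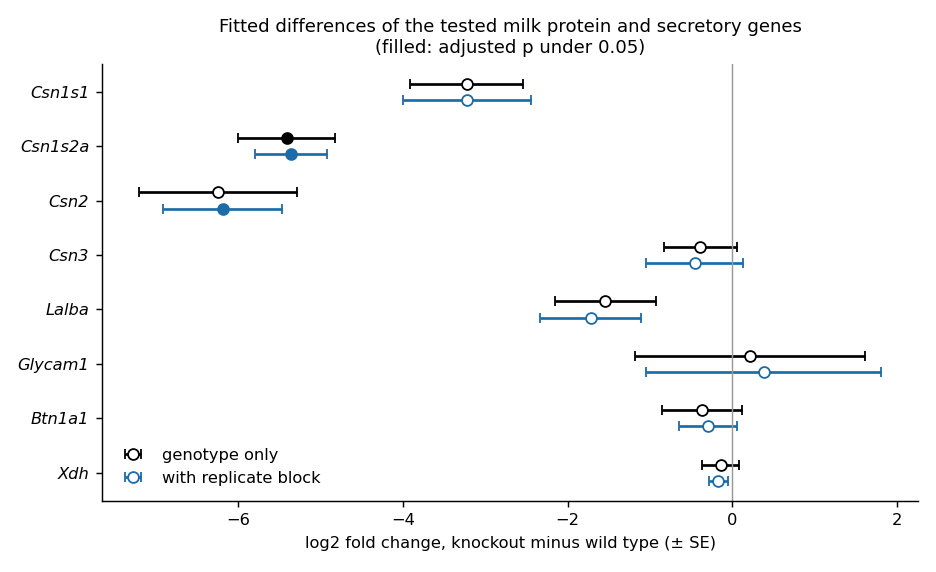
Log2 fold change, knockout minus wild type (horizontal axis, ± SE), for the 8 genes that were tested (vertical axis), from the fit with genotype alone (black) and with the experiment as replicate block (blue). Filled points have an edgeR adjusted p under 0.05: Csn1s2a in both fits (-5.41 and -5.36) and Csn2 with the block (-6.19).

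The make-up of the casein reads separated the genotypes. These shares were computed after the values above were seen, and no test was made. Csn3 held 51.5% of the casein reads in wild type 1 (2122 of 4118, exact 95% interval 49.99 to 53.1) and 51.5% in wild type 2 (690 of 1340, 48.8 to 54.2). In the knockout libraries its share was 84.0% in knockout 1 (968 of 1153, 81.7 to 86.0), 98.1% in knockout 2 (454 of 463), 95.4% in knockout 3 (1655 of 1735) and 96.4% in knockout 4 (894 of 927). The share of Csn3 is what the other caseins leave of the total, so it follows from the counts above and is no separate result. Why the shares differed was not tested. Csn2 held 21.6% and 9.85% in wild type 1 and 2, so the wild-type libraries differed in the rest of the mixture, and at most 1.65% in knockout. Csn1s1 held 20.4% and 32.9% in wild type and 1.73% to 13.7% in knockout. Per gene length, the share of Csn3 was 44.2% and 45.7% in wild type and 81.5% to 97.7% in knockout. The library protocol names no molecular identifiers, so these intervals hold for counting error alone.

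**Figure D3:**
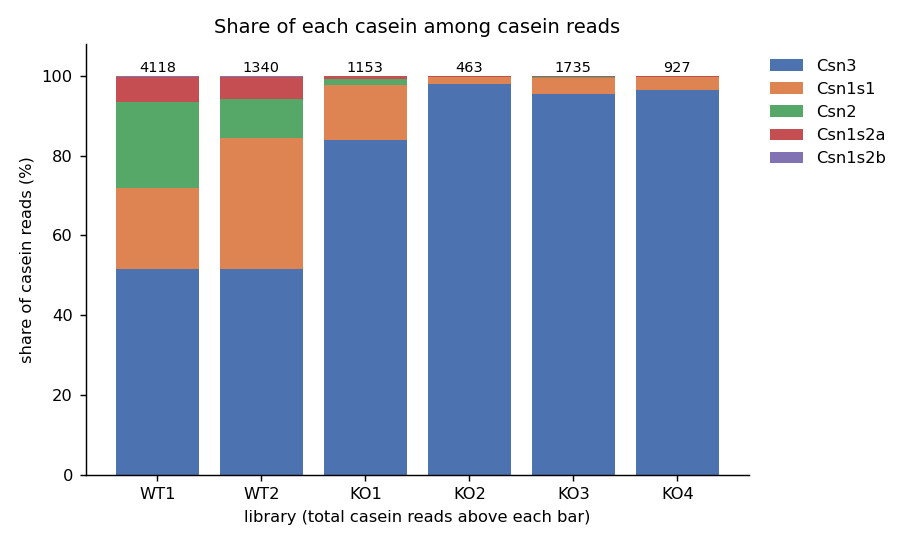
Share of each of the 5 casein genes among all casein reads (vertical axis, percent) in the 6 libraries (horizontal axis), with the total casein count above each bar. Csn3 (blue) is at 51.5% in both wild-type libraries and at 84.0% to 98.1% in the knockout libraries.

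Wap encodes whey acidic protein, a major whey protein of mouse milk. It had 2 counts in wild type 1 and 0 in the other 5 libraries, at or below the floor in both groups, and was not tested.

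Lalba encodes alpha-lactalbumin. Its reads numbered 83 in wild type 1, 28 in wild type 2, and 11, 6, 34 and 19 in knockout 1 to 4, or 2.52 and 1.08 CPM against 0.346, 0.237, 1.14 and 0.748 CPM. Knockout 3 was above wild type 2, so the groups overlapped, and the knockout libraries of experiment 1 were the lowest. The log2 fold change was -1.54 (SE 0.61, edgeR adjusted p = 0.530), with log2 differences of -2.86 within experiment 1 and -0.21 within experiment 2. Without wild type 1 it was -0.78.

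Glycam1, a mucin-like protein of milk that is also made by high endothelial venules of lymph nodes, was low and scattered. Wild type 1 held 16 reads, wild type 2 held 2, and knockout 1 to 4 held 0, 24, 13 and 0, so 2 knockout libraries had none and 1 had the most of all. The log2 fold change was 0.21 (SE 1.40, edgeR adjusted p = 0.995), and its sign changed with the library left out (-0.94 without knockout 2, 2.10 without wild type 1). Summed over libraries, wild type stood at 0.928 times knockout (95% counting interval 0.498 to 1.67, without the spread between libraries).

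Btn1a1 and Xdh encode butyrophilin and xanthine oxidoreductase, which bind each other at the membrane around the milk fat droplet. Xdh, which also works as an enzyme of purine breakdown in many tissues, stood at 165 CPM in wild type 1, 203 in wild type 2, and 131, 131, 186 and 219 CPM in knockout 1 to 4. Its log2 fold change was -0.14 (SE 0.23, edgeR adjusted p = 0.955), and the groups overlapped. Btn1a1 had 69 counts in wild type 1, 21 in wild type 2, and 49, 35, 28 and 17 in knockout 1 to 4, or 2.10 and 0.808 CPM against 1.54, 1.38, 0.941 and 0.669 CPM. The log2 fold change of Btn1a1 was -0.37 (SE 0.49, edgeR adjusted p = 0.945) and turned to 0.51 without wild type 1.

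The 2 wild-type libraries differed from each other in most of these genes. Of the 8 tested genes, 7 were at least 1.5-fold higher in wild type 1 than in wild type 2, against 17.2% of all tested genes; Xdh was the exception, at 0.813 times. The ratios ran from 1.51 for Csn1s1 through 2.34 for Lalba, 2.43 for Csn3, 2.60 for Btn1a1 and 2.74 for Csn1s2a to 5.32 for Csn2 and 6.32 for Glycam1, the last on 16 and 2 counts. With 1 wild-type library in each experiment, these ratios have no replicate check. The summed endothelial markers were also higher in wild type 1 (299.9 against 137 CPM). The gap was smaller for the summed luminal progenitor and alveolar markers (4030 against 3671 CPM). Whether these differences are linked was not tested, and 2 libraries could not show it.

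The experiments were compared with genotype in the model, which uses the knockout libraries as well. Xdh was the 1 of the 8 genes that differed, higher in experiment 2 with a log2 difference of 0.52 (SE 0.11, edgeR adjusted p = 0.0219), against 6.43% of all tested genes called. Its level was 131 CPM in both knockout libraries of experiment 1 and 186 and 219 in those of experiment 2. Without knockout 3 or knockout 4 the adjusted p was 0.0513 and 0.144. Csn2 (log2 difference -2.27, SE 0.80, adjusted p = 0.158), Csn1s2a (-1.24, SE 0.48, adjusted p = 0.151) and Btn1a1 (-1.03, SE 0.34, adjusted p = 0.101) were lower in experiment 2 without passing, and without knockout 2 the first 2 of these were called. A test of whether the effect of genotype differed between the experiments called 0 of the 8 genes and 0% of all tested genes by edgeR. At an unadjusted p under 0.05 it gave 2 of the 8, Csn3 and Lalba, and 586 of 13925 genes in all. Each experiment holds 1 wild-type library, so this test had little power and its 0 calls do not show equal effects.

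Among the tested genes, Csn2 and Csn1s2a had the most similar profiles over the 6 libraries (Pearson r = 0.98 of log2 CPM, a description with no test), followed by Csn1s1 with Csn2 (0.95) and with Csn1s2a (0.92). Csn3 was closer to Lalba (0.84) than to the other caseins (0.42 to 0.54), and Btn1a1 and Xdh ran opposite to each other (-0.76). All of these share the same 6 libraries and the same 2 experiments. A mean casein profile was taken over the 4 tested caseins, Csn1s1, Csn1s2a, Csn2 and Csn3. In it Csn3 counts as much as each of the others, although its own profile differed. Outside the 10 genes, those most like the mean casein profile were Lmo2 (r = 0.998), Reep1 (0.997), Kirrel3 (0.985), Crispld1 (0.984), Mecom (0.982), Spata1 (0.981), Zfp459 (0.980) and Zfp704 (0.979), the closest of 13917 genes compared, of which 182 had an r above 0.9. A profile that is itself lower in the knockout picks such genes, so their direction is no separate result. Crispld1 was counted 1425 times in wild type 1, 618 in wild type 2, and 556, 261, 508 and 410 times in knockout 1 to 4 (log2 fold change -1.14, edgeR adjusted p = 0.256), and Kirrel3 had a log2 fold change of -0.82 (adjusted p = 0.219, or 0.0512 with the replicate block).

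Other genes of milk production were compared from lists fixed with earlier results known. By edgeR, 1193 of all 13925 tested genes had an unadjusted p under 0.05, the share to set beside such counts here and below. Of 20 genes of the prolactin and STAT5 pathway, all tested, 10 had log2 fold changes above 0 and 10 below, with a median of 0.02 beside -0.01 over all tested genes; 0 were called by edgeR with or without the replicate block (3 at an unadjusted p under 0.05), by DESeq2 or by limma-voom. The prolactin receptor gene Prlr was at 30.0 and 10.1 CPM in wild type 1 and 2 and at 50.2, 48.2, 26.2 and 36.2 CPM in knockout 1 to 4 (log2 fold change 0.999, SE 0.43, edgeR adjusted p = 0.577, or 0.0547 with the block). Knockout 3 was the only knockout library below wild type 1. Cebpb, which encodes C/EBP-beta, had a log2 fold change of 0.48 (adjusted p = 0.520) and Nr3c1, the glucocorticoid receptor gene, one of -0.29 (adjusted p = 0.550). Stat5a, named for its role after its values were seen, was at 73.1 and 33.5 CPM in wild type and 57.6 to 74.8 CPM in knockout (log2 fold change 0.28, adjusted p = 0.911). Elf5, a transcription factor of alveolar cells named in the same way, was at 8.61 and 2.31 CPM in wild type and 2.48 to 3.99 CPM in knockout (log2 fold change -0.75, adjusted p = 0.762).

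Of 20 other milk and whey protein genes, 16 were tested, and 12 of these had log2 fold changes below 0 (median -0.24, and 0.15 without wild type 1). By edgeR 0 were called (5 at an unadjusted p under 0.05), as by DESeq2 and limma-voom, and with the replicate block Ltf rose, which encodes the iron-binding protein lactoferrin. Ltf was at 18.7 and 27.4 CPM in wild type 1 and 2 and at 24.2, 33.5, 52.7 and 57.9 CPM in knockout 1 to 4 (log2 fold change 0.87, SE 0.35, adjusted p = 0.546, and 0.0370 with the block). Each knockout library was above the wild type of its own experiment, and knockout 1 was below wild type 2. Trf, which encodes the iron carrier transferrin, a milk protein in rodents, was at 737 and 326 CPM in wild type and 198, 265, 349 and 262 CPM in knockout (log2 fold change -0.99, adjusted p = 0.387). Muc15, a mucin of the fat globule membrane, had a log2 fold change of -1.31 (adjusted p = 0.510) and Spp1, the osteopontin gene, one of 0.63 (adjusted p = 0.520).

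Of 18 tested genes of milk fat synthesis and secretion, 11 were below 0 and 7 above, with a median of -0.12. By edgeR in either fit, DESeq2 or limma-voom 0 were called (3 at an unadjusted p under 0.05 by edgeR). Plin2, which encodes the coat protein of lipid droplets, was at 137 and 70.9 CPM in wild type 1 and 2 and 71.3, 31.9, 52.3 and 63.2 CPM in knockout 1 to 4 (log2 fold change -0.92, adjusted p = 0.476). Knockout 1 was level with wild type 2 and the others were lower. The fatty acid transporter gene Cd36 (-0.82, adjusted p = 0.343) and the desaturase gene Scd1 (-0.83, adjusted p = 0.580) also missed the threshold. Of 19 tested genes of lactose synthesis, transport and the secretory machinery, 8 were below 0 and 11 above, with a median of 0.07. Again 0 were called by edgeR in either fit, by DESeq2 or by limma-voom (2 at an unadjusted p under 0.05 by edgeR). The calcium sensor gene Stim1 (0.29, adjusted p = 0.578), the Golgi calcium pump gene Atp2c2 (0.49, adjusted p = 0.582) and the glucose transporter gene Slc2a1 (0.28, adjusted p = 0.785) came first by p there.

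**Figure D4:**
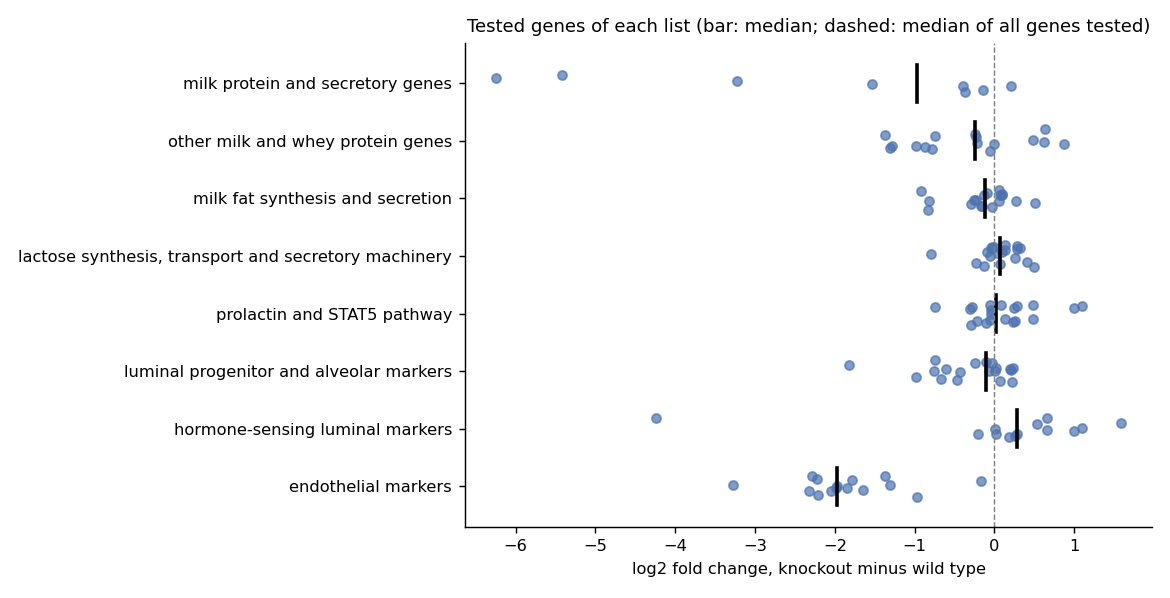
Log2 fold change, knockout minus wild type (horizontal axis), of each tested gene (points) in 8 lists (vertical axis), with the median of each list as a bar and that of all tested genes (-0.01) as a dashed line. Csn1s1, Csn2 and Csn1s2a lie at the far left of the top row (-3.23, -6.25 and -5.41), the lists of milk fat, lactose and prolactin genes centre near 0, and endothelial markers centre at -1.97.

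Markers of the cells that could carry milk protein RNA into the gate were read in the same fit. In that fit by edgeR, 1193 of all 13925 tested genes had an unadjusted p under 0.05. Genes called among all tested were 11 by edgeR, 217 with the replicate block, 262 by DESeq2 and 10 by limma-voom. Among 19 tested luminal progenitor and alveolar markers, which share Elf5, Trf and Mfge8 with the lists above, 12 were below 0 (median -0.11, and 0.17 without wild type 1). By edgeR 0 were called (2 at an unadjusted p under 0.05), by DESeq2 1 and by limma-voom 0, and with the replicate block Rspo1, a Wnt agonist, fell (log2 fold change -1.68, adjusted p = 0.0286). Rspo1 was at 8.64 and 2.69 CPM in wild type 1 and 2 and at 2.42, 1.502, 1.21 and 1.26 CPM in knockout 1 to 4. The luminal keratin gene Krt18 had a log2 fold change of 0.22 (adjusted p = 0.736). Among 13 hormone-sensing luminal markers, which share Prlr, Tnfsf11 and Prom1 with the lists above, 11 were above 0, with a median of 0.28 (0.81 without wild type 1). By edgeR 0 were called with or without the block by experiment (6 at an unadjusted p under 0.05), against 2 by DESeq2, 0 by limma-voom and 1 with the block by title number. Tbx3 (0.66, adjusted p = 0.255), Ly6a (1.59, adjusted p = 0.269) and Calca (-4.25, adjusted p = 0.415) came first by p. All 15 endothelial markers were below 0, with a median of -1.97 (-0.87 without wild type 1), and 14 of them had an unadjusted p under 0.05. By edgeR 1 was called, the adhesion molecule gene Sele (-1.64, adjusted p = 0.0218). With the replicate block 2 were called, Sele and Nos3 (-2.06, adjusted p = 0.0397; -2.05 and 0.181 without the block). DESeq2 called 10 of the 15 and limma-voom 1, and edgeR called 0 without wild type 1, knockout 2, knockout 3 or knockout 4. The cadherin gene Cdh5 had a log2 fold change of -2.29 (edgeR adjusted p = 0.176). In the endothelial list 13 of 15 genes were lower in all knockout libraries than in both wild-type libraries. So were 3 of the 8 tested milk genes and 8.57% of all tested genes. The same held for 1 of 19 luminal progenitor and alveolar markers, 0 of 13 hormone-sensing markers and 2 of 9 fibroblast markers. The part of luminal or endothelial cells in the casein values was not tested.

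Markers of the remaining cell types were read by edgeR, DESeq2 and limma-voom as well. Among all tested genes edgeR called 11, DESeq2 262 and limma-voom 10. Of 16 basal markers, 10 were below 0 (median -0.09), and 1 was called by each of the 3 tools, by edgeR Vim, the targeted gene; Lgr5 (0.74, adjusted p = 0.379) and Itgb4 (-0.46, adjusted p = 0.550) came next by p. With any 1 library other than knockout 1 left out, edgeR called 0 of the 16 basal markers, Vim included. Of 9 fibroblast markers, 8 were below 0 (median -0.24). Of these 0 were called by edgeR (2 at an unadjusted p under 0.05), 1 by DESeq2 and 0 by limma-voom, with Lum (-1.46, adjusted p = 0.236), Dpt (-1.62, adjusted p = 0.339) and Col3a1 (-0.47, adjusted p = 0.688) first. Of 15 leukocyte markers, 6 were tested and 0 called by edgeR (0 at an unadjusted p under 0.05), DESeq2 or limma-voom, with Cd74 (-0.37, adjusted p = 0.644), Laptm5 (-1.18, adjusted p = 0.744) and H2-Ab1 (0.63, adjusted p = 0.763) first. The median was -0.20, or -0.98 with no filter on low counts. Ptprc, which encodes CD45 and did not pass the filter, had 15 counts in wild type 1, 0 in wild type 2 and 4, 1, 0 and 2 in knockout 1 to 4, and Fcer1g had 13 and 8 in wild type against 0, 2, 1 and 0 in knockout. Wild type 1 was the highest library for both, and their part in the casein values was not tested. Of 9 adipocyte markers, 3 were tested. By edgeR 0 were called (2 at an unadjusted p under 0.05), or 1 without wild type 2, while DESeq2 called 1 and limma-voom 0. By edgeR the log2 fold changes were -2.03 for Fabp4 (adjusted p = 0.220), 0.71 for Lipe (adjusted p = 0.518) and 0.45 for Pparg (adjusted p = 0.975).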

How the data were processed

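Each deposited file gives the raw counts of 1 library, made by the authors with featureCounts 1.5.1 from exons of the UCSC mm10 annotation, reverse-stranded (option 2) and without multi-mapped reads, per the file headers. The length of each gene in bases is listed beside the counts, per the file headers. bcl2fastq 2.17 and STAR 2.5.2b came before that, per the submitters' processing notes. The total counts per library set the precision given with the results. The members and lists were chosen with earlier results of these data known.

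Counts were analysed with edgeR 4.0.16 in R 4.3.3 (filterByExpr, TMM, glmQLFit with robust, glmQLFTest, 2-sided), over 13925 genes, with 9412 set aside. Calls are Benjamini-Hochberg adjusted p under 0.05 over all tested genes. SE is the log2 fold change divided by the root of F. CPM uses TMM sizes, and log2 CPM a prior count of 2. The labels name 2 experiments without assigning samples, and a day code in the file names assigned them. Deviations from the group means correlated within experiments (r = 0.25 to 0.41) and negatively across them. With 2 wild-type libraries these deviations mirror each other. The main fit used genotype alone and left this pairing out. Libraries of an experiment were treated as paired only in the fits with the replicate block. Nothing says that libraries of a group come from separate animals beyond their pools, so p-values measure the spread between these samples. Alternatives were RLE size factors, DESeq2 1.42.0, limma-voom (limma 3.58.1), other filters, a fit without robust, blocks and leaving out each library. The edgeR fits were tested on simulated data.

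Named were the 10 genes, the listed genes called in either fit and the 3 with the smallest p of each list (cell types: at most 3 genes), and the 8 genes most like the caseins; Stat5a and Elf5 were added for their role. Stretches of 50 bases were compared with GENCODE M21 transcripts. Promoters are from RefSeq.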

Additional observations from a re-analysis of the deposited data

Results flagged for a closer look

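Csn3 was set apart because its knockout libraries moved in opposite directions in the 2 experiments. In experiment 1 the 2 knockout libraries (30.4 and 17.9 CPM) were below wild type 1 (64.5 CPM), and in experiment 2 they (55.6 and 35.2 CPM) were above wild type 2 (26.6 CPM). The difference of the log2 differences, experiment 2 minus experiment 1, was 2.19 (SE 0.52). By edgeR's quasi-likelihood test of the interaction its unadjusted p was 0.00446 and its adjusted p 0.998, and each experiment holds 1 wild-type library. The wild-type libraries differed by -1.28 on the log2 scale (wild type 2 minus wild type 1), and the knockout libraries of experiment 2 were both above those of experiment 1. For the 8 tested genes, 0 had a knockout library that stood apart from the other 3 by Dixon's criterion.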

How the results depend on the processing

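Of 8 tested genes, 1 was called; by limma-voom 0 were called, with the replicate block by experiment 2, with the replicate block by title number over 4 libraries 2 (Csn1s2a and Csn2, the titles crossing the experiments), and with 1 library left out 0 to 2. Over all genes the calls were 11, or 217 with the block by experiment, 262 by DESeq2 and 3 to 15 with 1 library left out. Csn1s1, Csn1s2a, Csn2 and Lalba kept a negative log2 fold change in every alternative run. The sign changed for Csn3 (-0.89 to 0.41 with 1 library left out), Glycam1 (-1.15 by limma-voom and -0.94 to 2.10 with 1 library left out), Btn1a1 (0.12 with the block by title number and -0.88 to 0.51 with 1 library left out) and Xdh (-0.30 to 0.02 with 1 library left out). Between the experiments 1 gene was called, or 0 to 3 with 1 knockout library left out, where the log2 difference ran from -1.01 to 0.33 for Csn1s1, -0.25 to 0.22 for Csn3 and -3.53 to 0.003 for Glycam1. The cause was not tested. Wap, Csn1s2b and Glycam1 are limited by depth, with at most 24 counts in a library. In the knockout libraries Csn1s2a had at most 8 counts and Csn2 at most 19, so depth limits the size of their fold changes as well.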
